A study of Mus musculus with 42 samples.

Results

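The antiviral interferon-stimulated genes are genes that type I interferon switches on and whose products block viruses inside the cell. They were taken as a list of 41 gene symbols, and each symbol was found once among the 21951 genes of the deposited expression table and once among the 12558 genes of the decay table. By known function the list was divided into 17 antiviral effectors, 6 sensors of foreign nucleic acid, 10 genes of the ubiquitin-like protein ISG15, of ubiquitin ligases or of the PARP family, and 8 other interferon-induced genes. The measurements came from mouse bone marrow-derived macrophages (BMDMs), grown from bone marrow with CSF-1 from L929 cells. ΔM BMDMs came from mice of 7 to 9 weeks on a C57BL/6 background, in which loxP-flanked Zfp36, the gene of tristetraprolin (TTP), is deleted by Cre expressed from the LysM promoter, and WT BMDMs came from their littermates. Both genotypes were left without LPS (0 h) or given 10 ng/ml of LPS, a cell wall component of Gram-negative bacteria, and taken after 3 or 6 h. At 3 and 6 h, cells were also taken 45 and 90 min after 5 µg/ml of actinomycin D, which stops transcription, so that mRNA loss could be followed. This gave 42 poly(A) RNA-Seq libraries in 14 groups of 3 biological replicates.

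In macrophages, LPS acts through the receptor TLR4 and the adaptor TRIF to induce interferon-β, which is secreted and binds its receptor on the same and on neighbouring cells. The receptor's kinases then activate transcription factors that bind interferon-stimulated response elements in promoters. A low level of this signalling exists without infection and sets the resting level of many of these genes. TTP is an RNA-binding protein that recognises AU-rich elements in 3′ UTRs and recruits the deadenylation machinery, and its best known targets are mRNAs of cytokines and chemokines.

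The core of the response element, GAAANNGAAA or TTTCNNTTTC on the other strand, was searched in promoter windows of 300 bases (250 before and 50 after the transcription start, RefSeq, GRCm38.p6). Windows were held for 30 of the 41 members, and 13 of these 30 (43.3%) had a match, beside 3.99% of the 27025 genes with a window. A match was found in 6 of 14 effectors, 4 of 4 sensors, 3 of 7 ubiquitin-like and PARP genes and 0 of 5 other induced genes that had a window. Members with a match had a median log2 ratio of ΔM over WT without LPS of 0.83 (0.12 to 1.94), and members without one had 0.73 (0.28 to 1.97), so that both sets covered almost the same range. The stretches around the matches are shown for Ifit3, Ifit1 and Isg15, the members with a match among the 12 with the largest ratio without LPS, with the matches in capitals. They lie at chr19:34583358-34583431 (+ strand), chr19:34640770-34640828 (+ strand) and chr4:156200860-156200911 (- strand). Every match is upstream of the transcription start used for its window. The stretch of Ifit3 nevertheless lies inside the gene as annotated (34583119 to 34588982), so that the start of its window is not the first start of the gene.
Ifit3: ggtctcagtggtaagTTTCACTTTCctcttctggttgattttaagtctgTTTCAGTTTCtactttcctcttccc
Ifit1: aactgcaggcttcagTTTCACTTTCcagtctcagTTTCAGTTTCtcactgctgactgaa
Isg15: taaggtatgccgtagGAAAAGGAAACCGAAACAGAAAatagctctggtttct
In Ifit3 and Ifit1 the 2 matches stood apart, while in Isg15 the 3 matches overlapped in a run of purines and C. A match of these letters is a description and not a measured binding site. Among the other members at least 2-fold higher in ΔM without LPS, Oasl1, Ifi44, Ifit2, Isg20, Oasl2 and Cmpk2 had no match in their windows. Ddx58 and Rsad2 had 1 match each, and no window was used for Zbp1, Usp18, Mx1 and Rtp4.

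Every value below is 1 pooled value per group in the authors' deposited tables. These pooled values carry neither the sequencing depth nor the spread among the 3 replicates. The authors' own test columns in the expression table were not used, so that no difference here is set against replicate error and none was tested. Expression was given as FPKM, the number of fragments scaled to transcript length and to library size, which is per length and can be compared between genes. Ratios are on the log2(FPKM + 1) scale and are read against the 11128 genes with a mean of at least 1 FPKM over the 6 groups without actinomycin D. All 41 members passed this filter. Zfp36, the deleted gene, was at 5.98, 16.3 and 30.98 FPKM in ΔM BMDMs at 0, 3 and 6 h of LPS, against 118, 1017 and 1782 FPKM in WT BMDMs. All 8 macrophage markers were above 5 FPKM in every group. They summed to 5467 to 10128 FPKM in ΔM and 6968 to 12548 FPKM in WT BMDMs. Lyz2 was lower in ΔM, with 4067, 3098 and 2043 FPKM at 0, 3 and 6 h, against 6936, 4841 and 3541 FPKM in WT BMDMs. Cd68, also a large part of these sums, was at 4880, 2739 and 2175 FPKM in ΔM, against 4477, 2939 and 2019 FPKM in WT BMDMs. Markers of lymphocytes (4 of 7 in the table), dendritic cells (6 of 6) and fibroblasts (5 of 5) summed to at most 3.5 FPKM in any group. The 8 neutrophil markers summed to 36.2, 3.23 and 17.0 FPKM in ΔM BMDMs at 0, 3 and 6 h, against 18.3, 3.63 and 5.67 FPKM in WT BMDMs. At 0 h S100a9 (18.4 FPKM in ΔM and 8.34 FPKM in WT BMDMs) and S100a8 (14.3 and 6.84 FPKM in the same order) made up most of the sum, and at 6 h S100a8 did (15.9 FPKM in ΔM and 4.21 FPKM in WT BMDMs). Ly6g was at 1.15 FPKM in ΔM and 0.32 FPKM in WT BMDMs at 0 h and at 0 at 3 and 6 h. The part of this difference in the results was not tested, and in bulk RNA a change in the share of cells and a change in RNA per cell cannot be told apart.

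Without LPS, every one of the 41 antiviral genes had a higher level in ΔM than in WT BMDMs. Together they made up 0.540% of all FPKM in ΔM BMDMs (sum 3858) and 0.301% in WT BMDMs (sum 2103). The median log2 ratio of ΔM over WT was 0.81 (range 0.12 to 2.05), while the median of all genes tested was -0.05. Above 0 were 41 of 41 members, beside 41.7% of all genes, and 15 of 41 were at least 2-fold higher, beside 0.953% of all genes. These 15 were 9 effectors, the sensors Zbp1 and Ddx58, Isg15 and Usp18, and Ifi44 and Rtp4. The class medians were 1.04 for effectors, 0.86 for sensors, 0.68 for ubiquitin-like and PARP genes and 0.82 for other induced genes.

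**Figure D1:**
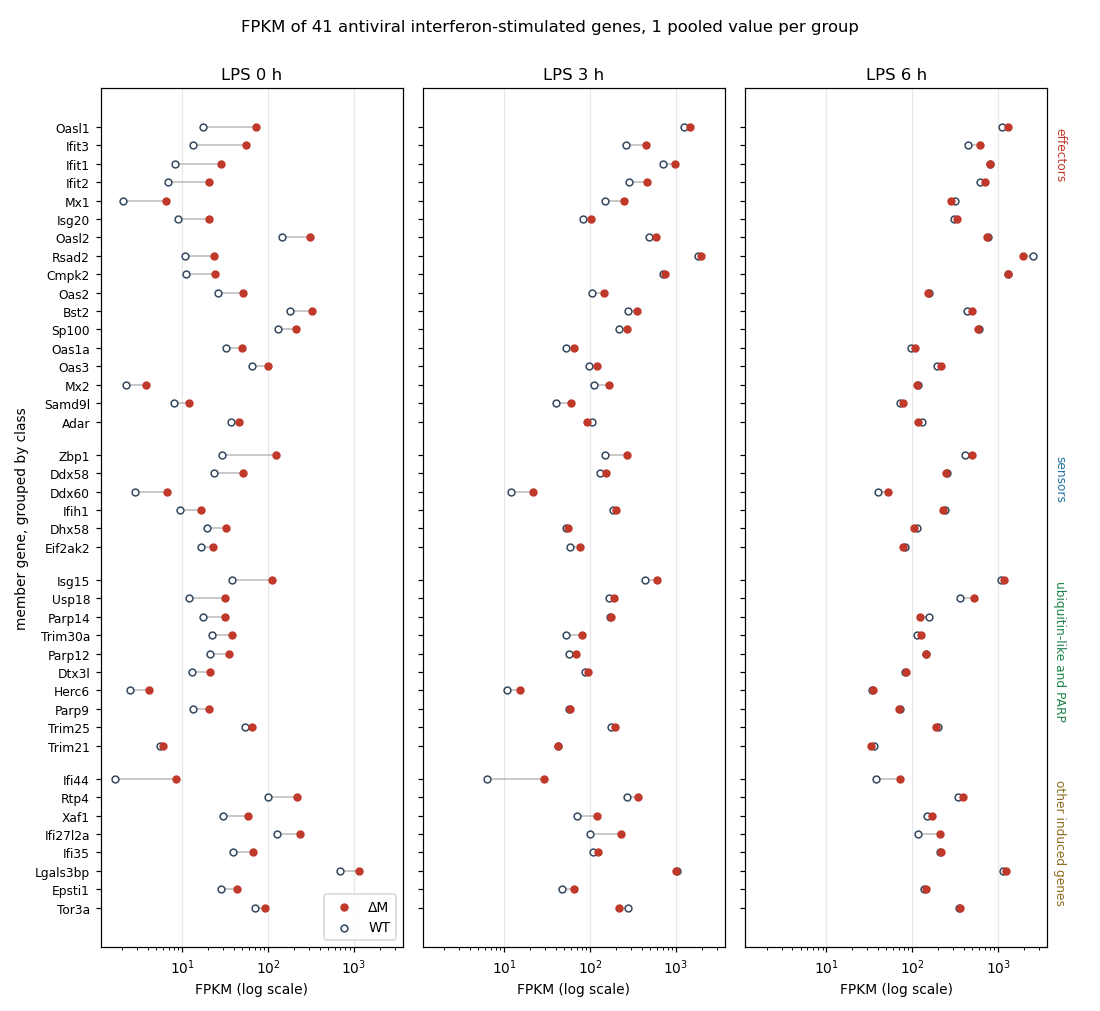
FPKM (log axis) of the 41 members at 0, 3 and 6 h of LPS, ΔM as filled and WT as open circles, 1 pooled value per group and no error. At 0 h the ΔM circle lies to the right of the WT circle for all 41 members, and at 6 h the circles of most members lie close together.

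For each gene, levels and log2 ratios of ΔM over WT are given here in the order of 0, 3 and 6 h of LPS. Among the effectors, Oasl1, which in mice restrains translation of Irf7 mRNA, had 72.5, 1454 and 1298 FPKM in ΔM BMDMs at 0, 3 and 6 h of LPS, against 17.7, 1233 and 1121 FPKM in WT BMDMs (ratios 1.97, 0.24 and 0.21). Ifit3, of a family that binds viral RNA and hinders its translation, was at 55.04, 451 and 609 FPKM in ΔM BMDMs, against 13.6, 264 and 450.2 FPKM in WT BMDMs (ratios 1.94, 0.77 and 0.44). Its relative Ifit1, which binds RNA that lacks the cap methylation of the host, was at 28.1, 988 and 815 FPKM in ΔM BMDMs, against 8.22, 698 and 814 FPKM in WT BMDMs (ratios 1.66, 0.50 and 0.00). For Ifit1 the genotypes thus stood far apart without LPS and almost at the same level at 6 h. Ifit2 of the same family was at 20.4, 462 and 708 FPKM in ΔM BMDMs, against 6.86, 280.4 and 619.8 FPKM in WT BMDMs (ratios 1.44, 0.72 and 0.19). Isg20, an exonuclease that degrades RNA, was at 20.5, 102 and 332 FPKM in ΔM BMDMs, against 8.86, 83.5 and 305 FPKM in WT BMDMs (ratios 1.12, 0.28 and 0.12), and most of its increase came after 3 h. Mx1 encodes a dynamin-like GTPase against influenza virus, but the allele of C57BL/6 mice makes no functional protein, and its mRNA was at 6.52, 249.5 and 285 FPKM in ΔM BMDMs, against 2.06, 148 and 318 FPKM in WT BMDMs (ratios 1.30, 0.75 and -0.15). Mx1 thus changed from the higher level in ΔM to the higher level in WT BMDMs between 3 and 6 h. Rsad2, which encodes viperin, had 23.7, 1980.4 and 1928 FPKM in ΔM BMDMs, against 10.7, 1814 and 2579 FPKM in WT BMDMs, and its ratios of 1.08, 0.13 and -0.42 crossed 0 between 3 and 6 h. At the low end of the class stood Adar, the enzyme that edits adenosine in double-stranded RNA, with 46.2, 92.9 and 118 FPKM in ΔM BMDMs, against 37.4, 106 and 131 FPKM in WT BMDMs (ratios 0.30, -0.19 and -0.15). Samd9l, a restriction factor of poxviruses, was at 11.96, 60.3 and 78.5 FPKM in ΔM BMDMs, against 7.99, 40.6 and 71.8 FPKM in WT BMDMs (ratios 0.53, 0.56 and 0.13). Mx2, which lies beside Mx1, was at 3.76, 167 and 115 FPKM in ΔM BMDMs, against 2.23, 112 and 115 FPKM in WT BMDMs (ratios 0.56, 0.57 and 0.00). Its ratio was about as large at 3 h as without LPS and close to 0 at 6 h. Oas2, one of the oligoadenylate synthetases that activate RNase L, was at 51.5, 147 and 150.4 FPKM in ΔM BMDMs, against 26.5, 106 and 157 FPKM in WT BMDMs (ratios 0.93, 0.46 and -0.06). Sp100, a component of nuclear bodies, was at 211, 266 and 591 FPKM in ΔM BMDMs, against 131, 216 and 594 FPKM in WT BMDMs (ratios 0.69, 0.30 and -0.01). The remaining effectors, Oasl2, Oas1a, Oas3 and Bst2, which encodes tetherin, had ratios of 1.10, 0.62, 0.60 and 0.83 at 0 h and of -0.02, 0.16, 0.17 and 0.18 at 6 h, so that all 4 were lower at the later time.

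Of the sensors, with levels and ratios again at 0, 3 and 6 h of LPS, Zbp1, which recognises nucleic acid in the Z form and can trigger cell death, had the largest ratio of all members without LPS. It was at 123, 272 and 497 FPKM in ΔM BMDMs, against 28.9, 149 and 408 FPKM in WT BMDMs, with ratios of 2.05, 0.87 and 0.29. The RIG-I-like RNA helicases lay lower in this order. Ddx58, which encodes RIG-I, was at 50.7, 152 and 249 FPKM in ΔM BMDMs, against 23.4, 132 and 255 FPKM in WT BMDMs (ratios 1.08, 0.20 and -0.03). Ifih1, which encodes MDA5, was at 16.4, 199.98 and 230.2 FPKM in ΔM BMDMs, against 9.48, 184 and 241 FPKM in WT BMDMs (ratios 0.73, 0.12 and -0.07). Dhx58, which encodes LGP2, a modulator of RIG-I and MDA5, was at 32.03, 54.6 and 105 FPKM in ΔM BMDMs, against 19.3, 52.4 and 114 FPKM in WT BMDMs (ratios 0.70, 0.06 and -0.13). All 3 thus stood above WT without LPS and slightly below it at 6 h. Ddx60, a further helicase, had 6.63, 21.5 and 51.96 FPKM in ΔM BMDMs, against 2.84, 11.8 and 39.9 FPKM in WT BMDMs (ratios 0.99, 0.81 and 0.37). Eif2ak2, which encodes the kinase PKR that halts translation on double-stranded RNA, had the lowest ratio of the class at 0 h, with 22.7, 76.8 and 77.7 FPKM in ΔM BMDMs, against 16.6, 58.9 and 81.8 FPKM in WT BMDMs (ratios 0.43, 0.38 and -0.07). At 6 h 4 of the 6 sensors had a ratio below 0, beside 6228 of the 11128 genes tested, so that the class was near the background. Zbp1 and Ddx60 were above 0.

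In the ubiquitin-like and PARP class at the same 3 times, Isg15, a ubiquitin-like protein that is joined to viral and host proteins, had 112, 606 and 1186 FPKM in ΔM BMDMs, against 37.6, 432 and 1079 FPKM in WT BMDMs (ratios 1.55, 0.49 and 0.14). Usp18, which removes ISG15 and also dampens the interferon receptor, was at 31.6, 190.5 and 519.5 FPKM in ΔM BMDMs, against 12, 167 and 361 FPKM in WT BMDMs (ratios 1.32, 0.19 and 0.52). Its ratio at 6 h was thus above that at 3 h, which among the members held also for Adar, Lgals3bp and Tor3a. Herc6, the ISG15 ligase of mice, was at 4.15, 15.2 and 35.2 FPKM in ΔM BMDMs, against 2.45, 10.8 and 33.8 FPKM in WT BMDMs (ratios 0.58, 0.45 and 0.06). Parp9, which acts in a complex with the ubiquitin ligase DTX3L, was at 20.4, 58.98 and 70.6 FPKM in ΔM BMDMs, against 13.5, 57.4 and 71.6 FPKM in WT BMDMs (ratios 0.56, 0.04 and -0.02), and Dtx3l itself was at 21.3, 94.7 and 84.04 FPKM in ΔM BMDMs, against 13.2, 86.98 and 82.4 FPKM in WT BMDMs (ratios 0.65, 0.12 and 0.03). The partners thus had similar ratios at each time. Parp14, which attaches single ADP-ribose units to proteins, was at 31.3, 177 and 124 FPKM in ΔM BMDMs, against 17.4, 172 and 155 FPKM in WT BMDMs, and its ratios of 0.81, 0.04 and -0.33 ended as the lowest of the class. Parp12, an enzyme of the same activity, was at 34.9, 68.7 and 145 FPKM in ΔM BMDMs, against 21.1, 56.4 and 144 FPKM in WT BMDMs (ratios 0.70, 0.28 and 0.01). Trim30a, of the TRIM family of ubiquitin ligases, was at 38.3, 81.3 and 125 FPKM in ΔM BMDMs, against 22.2, 51.9 and 114 FPKM in WT BMDMs (ratios 0.76, 0.64 and 0.14), and its ratio at 3 h was the largest of the class at that time. Trim25, a ligase that acts on RIG-I, and Trim21, a receptor for antibody-coated virus in the cytosol, had the smallest ratios at 0 h, 0.28 and 0.12. Trim25 was at 65.6, 197 and 189.8 FPKM in ΔM BMDMs, against 53.9, 176 and 199.8 FPKM in WT BMDMs (ratios 0.28, 0.16 and -0.07). Trim21 was at 6, 42.01 and 33.4 FPKM in ΔM BMDMs, against 5.46, 42.1 and 35.6 FPKM in WT BMDMs (ratios 0.12, 0.00 and -0.09), so that its level was nearly equal in both genotypes throughout.

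The other induced genes held the 2 members that were at least 2-fold higher in ΔM at 3 h of LPS. At 0, 3 and 6 h Ifi44 was at 8.42, 28.8 and 71.9 FPKM in ΔM BMDMs, against 1.63, 6.20 and 37.7 FPKM in WT BMDMs, and its ratios of 1.84, 2.05 and 0.91 were above those of every other member at 3 and 6 h. Ifi27l2a, which encodes a small protein of the ISG12 family, was at 235, 231 and 208 FPKM in ΔM BMDMs, against 128, 99.9 and 115 FPKM in WT BMDMs (ratios 0.87, 1.20 and 0.85). It was thus higher in ΔM at all 3 times, and its level at 6 h was below that at 0 h in both genotypes. Rtp4, a chaperone of receptors at the cell membrane, was at 216, 358 and 394 FPKM in ΔM BMDMs, against 101, 266 and 337 FPKM in WT BMDMs (ratios 1.09, 0.43 and 0.22). Xaf1, a partner of the apoptosis inhibitor XIAP, was at 59.2, 119 and 172 FPKM in ΔM BMDMs, against 29.8, 70.98 and 149 FPKM in WT BMDMs (ratios 0.97, 0.74 and 0.21). Both had lost most of the difference by 6 h. Ifi35 was at 67.4, 122 and 218 FPKM in ΔM BMDMs, against 39.2, 109 and 209 FPKM in WT BMDMs (ratios 0.77, 0.17 and 0.06), and Epsti1 was at 43.5, 64.1 and 145 FPKM in ΔM BMDMs, against 28.04, 47.03 and 136 FPKM in WT BMDMs (ratios 0.61, 0.44 and 0.09). Lgals3bp, a secreted glycoprotein, was the most abundant member without LPS, at 1158, 997 and 1236 FPKM in ΔM BMDMs, against 697, 1037 and 1146 FPKM in WT BMDMs (ratios 0.73, -0.06 and 0.11). Tor3a, an ATPase of the endoplasmic reticulum, had 92.6, 215 and 356 FPKM in ΔM BMDMs, against 70.2, 274 and 355 FPKM in WT BMDMs (ratios 0.40, -0.35 and 0.00), and its ratio at 3 h was the lowest of all members at that time.

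After LPS the difference between the genotypes was smaller. At 3 h the members made up 1.82% of all FPKM in ΔM and 1.53% in WT BMDMs, and the median log2 ratio was 0.30 (range -0.35 to 2.05; all genes -0.02). Above 0 were 37 of 41 members (all genes 47.1%), and 2 of 41, Ifi44 and Ifi27l2a, were at least 2-fold higher (all genes 0.584%). At 1.5-fold the count was 9 of 41, and the share of all genes at that fold was not computed. At 6 h the members made up 2.36% of all FPKM in both genotypes, and the median ratio was 0.06 (range -0.42 to 0.91; all genes -0.03). Above 0 were 26 of 41 members, beside 43.5% of all genes, and 0 of 41 were at least 2-fold higher, beside 0.35%. With each ratio set relative to the median of all genes, the median at 6 h was 0.10 and 31 of 41 were above 0. For 33 of 41 members the ratio was lower at each later time, beside 14.9% of all genes. The class medians at 3 h were 0.30 for effectors, 0.29 for sensors, 0.17 for ubiquitin-like and PARP genes and 0.43 for other induced genes. At 6 h they were 0.01, -0.05, 0.02 and 0.16 in the same order of classes.

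**Figure D2:**
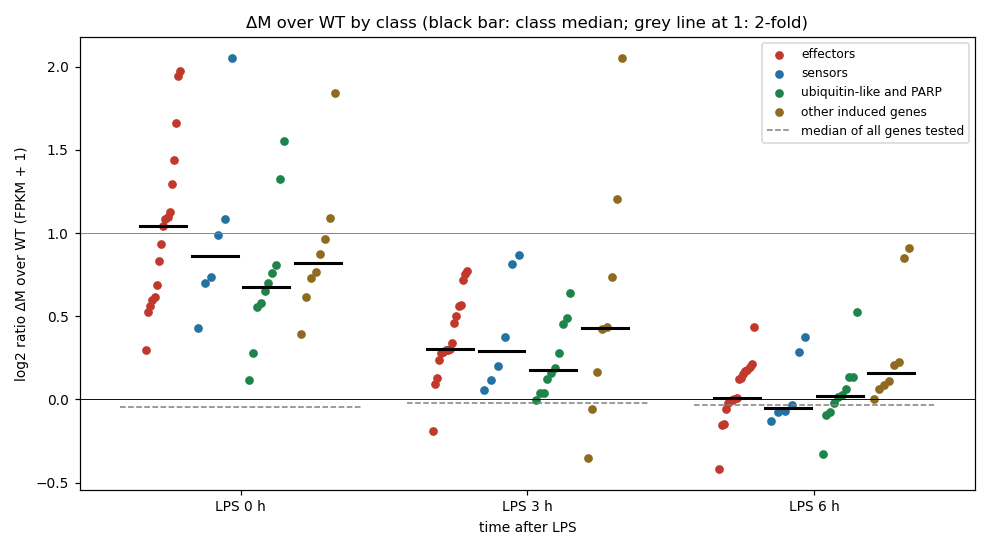
Log2 ratio of ΔM over WT (FPKM + 1) for each member at 0, 3 and 6 h of LPS, by class, with the class median as a black bar and the median of all 11128 genes tested as a dashed line. All points lie above 0 at 0 h, 37 of 41 at 3 h and 26 of 41 at 6 h.

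Most members were higher after LPS in both genotypes, from a higher starting level in ΔM BMDMs. At 3 h over 0 h, 27 of 41 members were at least 2-fold higher in ΔM BMDMs (all genes 7.63%) and 34 of 41 in WT BMDMs (all genes 7.64%). At 6 h over 0 h the counts were 37 of 41 in ΔM (all genes 8.74%) and 39 of 41 in WT BMDMs (all genes 9.72%). The median log2 responses at 3 h were 1.56 in ΔM and 1.95 in WT BMDMs, and at 6 h they were 1.95 in ΔM and 2.56 in WT BMDMs. Over all genes tested, the median response lay at -0.34 in ΔM and -0.37 in WT BMDMs at 3 h and at -0.54 in ΔM and -0.59 in WT BMDMs at 6 h. Relative to these shifts the members' medians were 1.90 in ΔM and 2.33 in WT BMDMs at 3 h, and 2.49 in ΔM and 3.14 in WT BMDMs at 6 h. The members not 2-fold higher at 6 h were Bst2, Rtp4, Ifi27l2a and Lgals3bp in ΔM, and Ifi27l2a and Lgals3bp in WT BMDMs. Between 3 and 6 h, 8 of 41 members were at least 2-fold higher at the later time in ΔM (all genes 3.26%) and 15 of 41 in WT BMDMs (all genes 3.64%). Set relative to the median of all genes, 14 of 41 in ΔM and 21 of 41 in WT BMDMs were so, for which no share of all genes was computed. Among the 15 in WT BMDMs were Ifi44, Isg20, Ddx60, Herc6 and Epsti1, with WT responses of 2.43, 1.86, 1.67, 1.56 and 1.51.

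The effectors responded most, with a median at 6 h over 0 h of 3.44 in ΔM and 4.95 in WT BMDMs. For sensors these medians were 2.14 in ΔM and 3.40 in WT BMDMs, for ubiquitin-like and PARP genes 1.98 and 2.63 in the same order, and for other induced genes 1.60 and 2.26. Rsad2 had the largest response of all members, 6.33 in ΔM and 7.28 in WT BMDMs at 3 h and 6.29 in ΔM and 7.79 in WT BMDMs at 6 h. Cmpk2, a mitochondrial nucleotide kinase encoded beside Rsad2, was at 23.8, 749.9 and 1308 FPKM in ΔM BMDMs at 0, 3 and 6 h of LPS, against 11.1, 703 and 1301 FPKM in WT BMDMs, a response at 6 h of 5.72 in ΔM and 6.75 in WT BMDMs. Mx1, Ifit1 and Ifit2 followed in WT BMDMs at 6 h with 6.70, 6.47 and 6.30. The response of Ifih1, the largest among the sensors, was 3.73 in ΔM and 4.53 in WT BMDMs at 6 h. Isg15 reached 3.39 in ΔM and 4.81 in WT BMDMs, and Usp18 4.0 in ΔM and 4.80 in WT BMDMs. The oligoadenylate synthetase genes, whose products activate RNase L, split into Oas2, Oas1a and Oas3 with WT responses at 6 h of 2.52, 1.56 and 1.56, and the related Oasl1 and Oasl2 with 5.90 and 2.38. Reads of members with close relatives (the Ifit, Oas and Mx genes, Trim30a and Ifi27l2a) could be shared between copies by the quantification, which the tables do not resolve.

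The response was smaller in ΔM than in WT BMDMs for 37 of 41 members at 3 h over 0 h (all genes 45.5%) and for 41 of 41 at 6 h over 0 h (all genes 46.4%). The median difference, ΔM minus WT, was -0.53 at 3 h and -0.71 at 6 h. These differences contain the untreated groups of both genotypes, as do the ratios at 0 h, and therefore restate on another scale that the genotypes differed at 0 h and came together at 6 h. The largest were those of Zbp1 (-1.77), Oasl1 (-1.76) and Ifit1 (-1.66) at 6 h, and the smallest that of Ifi27l2a (-0.02). Mx2, Samd9l, Ifi44 and Ifi27l2a were the members whose response at 3 h was not smaller in ΔM, with differences of 0.01, 0.03, 0.21 and 0.33.

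**Figure D3:**
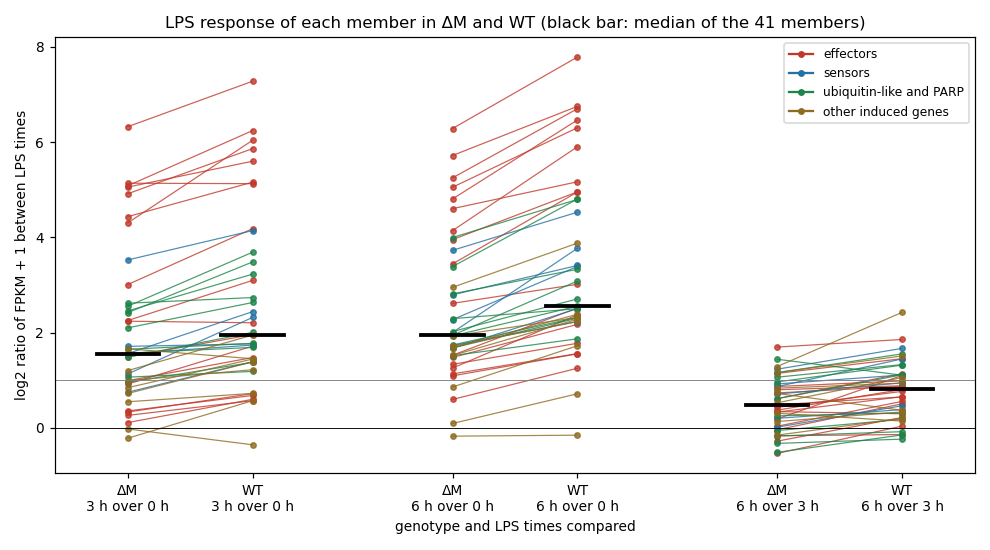
Log2 ratio of FPKM + 1 between LPS times (3 h over 0 h, 6 h over 0 h and 6 h over 3 h) for each member in ΔM and WT, with a line joining the 2 genotypes and a black bar at the median of the 41 members. The ΔM end of the line is lower for 37 of 41 members at 3 h over 0 h and for 41 of 41 at 6 h over 0 h.

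Several members are neighbours in the genome (GRCm38.p6). Rsad2 (chromosome 12, 26442743 to 26456452) and Cmpk2 (chromosome 12, 26469117 to 26479837) lie 12.7 kb apart and had log2 ratios of ΔM over WT at 0 h of 1.08 and 1.04. Ifit2, Ifit3 and Ifit1 lie 6.59 and 51.9 kb from each other in this order on chromosome 19, with ratios of 1.44, 1.94 and 1.66. Parp9 and Dtx3l have a gap of -0.557 kb, that is an overlap, on chromosome 16, and had ratios of 0.56 and 0.65. Oas2 and Oas3 lie 3.21 kb apart on chromosome 5 and had 0.93 and 0.60. In contrast, Oasl2 and Oasl1, 10.9 kb apart on the same chromosome, had 1.10 and 1.97, and Mx1 and Mx2, 73.2 kb apart on chromosome 16, had 1.30 and 0.56. The pairs thus included both near-equal and unequal ratios.

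mRNA loss was described by the slope of log2 FPKM over 0, 45 and 90 min of actinomycin D, which the authors fitted with a linear model. Because FPKM is scaled to each library, a slope shows loss compared with all other mRNAs. Values above 100% left after 90 min can arise where other mRNAs were lost faster and are no measured increase of the mRNA. The error of each fit is not known here. Slopes are read against the 10555 genes with a mean of at least 1 FPKM at 3 and 6 h, which all 41 members passed. A half-life of 180 min or more, listed as stable, was found in all 4 groups for 25 of 41 members, beside 66.1% of all genes, so that the members were near the background. Under 180 min were 12 of 41 in ΔM (all genes 22.2%) and 5 of 41 in WT BMDMs (all genes 21%) at 3 h, and 6 of 41 in ΔM (all genes 17.4%) and 8 of 41 in WT BMDMs (all genes 22.6%) at 6 h. For Isg20, Bst2, Oas1a, Zbp1, Dhx58 and Usp18 the slope was not below 0 in any group (6 of 41, all genes 16.6%).

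Mx2, Dtx3l and Trim21 had half-lives under 180 min in all 4 groups (3 of 41, all genes 11.1%). Mx2, a relative of Mx1, was the shortest-lived member, with 28.1 min in ΔM and 33.5 min in WT BMDMs at 3 h, and 69.7 min in ΔM and 64.9 min in WT BMDMs at 6 h. The fit left 10.9% in ΔM and 15.5% in WT BMDMs at 3 h, and 40.8% in ΔM and 38.3% in WT BMDMs at 6 h after 90 min, so that the fitted loss of Mx2 mRNA was slower at 6 h in both genotypes. Dtx3l had 103 min in ΔM and 106 min in WT BMDMs at 3 h, and 122 min in ΔM and 98.2 min in WT BMDMs at 6 h. Trim21 had 123 min in ΔM and 132 min in WT BMDMs at 3 h, and 139 min in ΔM and 90.4 min in WT BMDMs at 6 h. Of the 2, Trim21 showed the larger gap between genotypes at 6 h. Adar was listed as stable in ΔM at 3 h and had 122 min in WT BMDMs, and 164 min in ΔM and 123 min in WT BMDMs at 6 h. Ifit1 had 105 min in ΔM BMDMs at 3 h, where it was listed as stable in WT, and 106 min in ΔM and 72.5 min in WT BMDMs at 6 h. Samd9l likewise had 108 min in ΔM at 3 h and stable in WT, and 150.3 min in ΔM and 129 min in WT BMDMs at 6 h. Oasl1 had 152 min in WT at 3 h, and Parp14 and Parp9 had 172 and 176 min in WT at 6 h, each being listed as stable in the 3 other groups.

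Between the genotypes at 3 h, the fitted loss was faster in ΔM than in WT BMDMs for most members. The median slope difference, ΔM minus WT, was -0.24 log2 units over 90 min (range -1.13 to 0.87), and 32 of 41 were below 0, beside 53.8% of all genes. A difference of at least 0.25 log2 units toward faster loss was found for 18 of 41 (all genes 31.3%), and toward slower loss for 4 of 41 (all genes 23.9%). Set relative to the median slope of all genes in each group, the median difference was -0.16, with 27 of 41 below 0 and 15 of 41 past 0.25 toward faster loss. The shares of all genes on this centred scale were not computed. Ifi27l2a had the largest difference, -1.13, with 76.5% left after 90 min in ΔM and 168% in WT BMDMs. Ifi44 followed with -0.81 (52.03% left in ΔM and 91.5% in WT BMDMs), Xaf1 with -0.77 (69.4% in ΔM and 119% in WT), Trim30a with -0.72 (68.9% in ΔM and 114% in WT) and Samd9l with -0.65 (56.1% in ΔM and 88.4% in WT). In 7 of 41 members (all genes 3.87%), Mx1, Oas2, Ddx60, Trim30a, Ifi44, Rtp4 and Xaf1, a half-life under 180 min was listed in ΔM at 3 h and in no other group, namely 95.5 min for Ifi44, 96.5 min for Mx1, 107 min for Ddx60, 118 min for Rtp4, 151 min for Oas2, 167 min for Trim30a and 171 min for Xaf1. The 4 members with slower loss in ΔM were Tor3a (0.87), Oasl1 (0.43), Lgals3bp (0.43) and Bst2 (0.29). Tor3a left 139% in ΔM and 76.5% in WT BMDMs. The level at 3 h is also the first point of these fits, so that slope and ratio at 3 h share libraries. Side by side, Ifi27l2a, Ifi44, Xaf1 and Trim30a had ratios of ΔM over WT at 3 h of 1.20, 2.05, 0.74 and 0.64. The members with slower loss had ratios of both signs, -0.35 for Tor3a, -0.06 for Lgals3bp, 0.24 for Oasl1 and 0.34 for Bst2.

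At 6 h the slopes of the genotypes lay close together. The median difference was 0.07 log2 units over 90 min (range -0.29 to 0.39; all genes 0.05), and 0.027 when set relative to the median slope of all genes. Below 0 were 16 of 41 members, beside 41.1% of all genes. Slower loss in ΔM by at least 0.25 log2 units was found for 2 of 41, Ifit1 and Trim21 (all genes 19.7%), and faster loss for 1 of 41, Ifi27l2a (all genes 9.68%). Ifit1 had a difference of 0.39, with 55.5% left in ΔM and 42.3% in WT BMDMs, and Trim21 had 0.35, with 63.9% left in ΔM and 50.2% in WT BMDMs. Ifi27l2a had -0.29, with 126% in ΔM and 153% in WT BMDMs. Next in size were Mx1 (0.20) and Cmpk2 (0.19), both within 0.25. For 20 of 41 members the difference was below 0 at 3 h and above 0 at 6 h, beside 29.1% of all genes. From 3 to 6 h the median change of slope was 0.12 log2 units over 90 min in ΔM (all genes 0.07) and -0.05 in WT BMDMs (all genes -0.04), and relative to all genes it was 0.032 in ΔM and -0.014 in WT BMDMs.

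**Figure D4:**
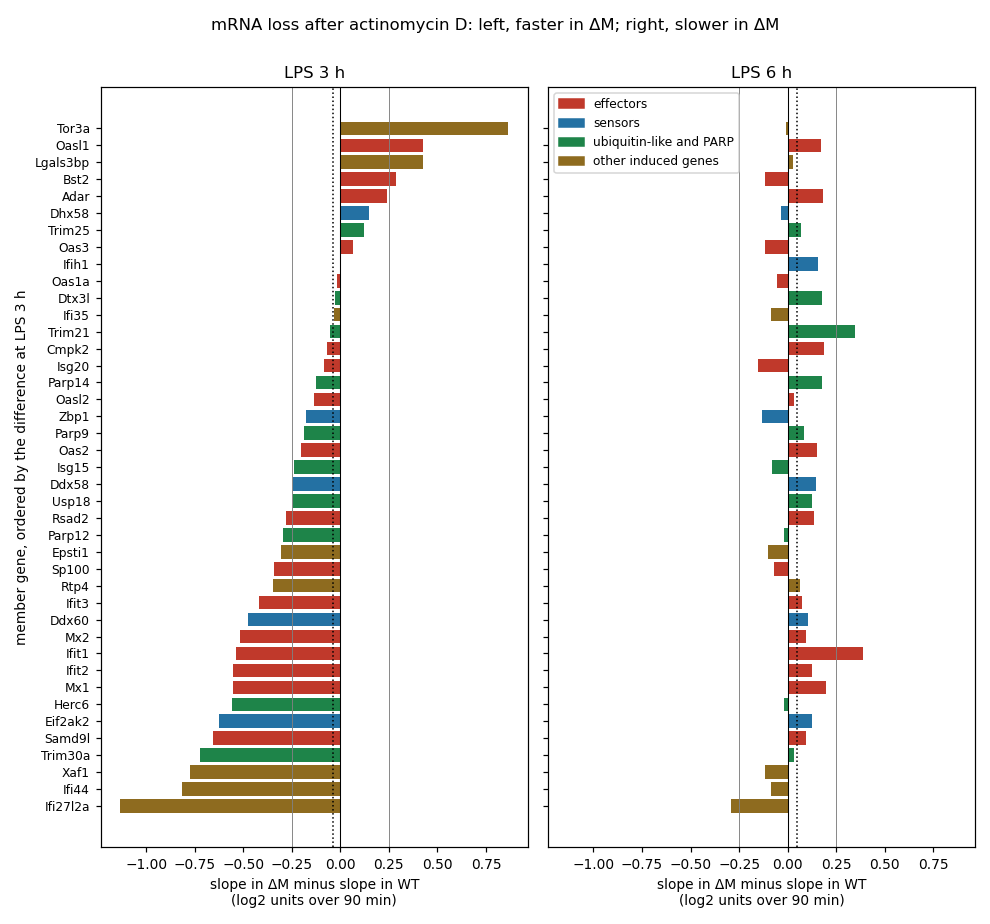
Slope of log2 FPKM after actinomycin D in ΔM minus that in WT (log2 units over 90 min) at LPS 3 h and 6 h for each member, coloured by class and ordered by the value at 3 h; grey lines mark 0.25 in each direction and the dotted line the median of all genes tested. At 3 h 32 of 41 bars point left (faster loss in ΔM), with a range of -1.13 to 0.87, and at 6 h the bars lie between -0.29 and 0.39.

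The study crosslinked TTP to RNA in WT BMDMs at 3 h and at 6 h of LPS, and reports that the set of targets shifts between these times. Only its sites at 6 h were used here, so that slopes at 3 h are set beside sites of the later time. The list of sites at 6 h gave 3′ UTR sites for Cmpk2, Usp18, Ifit2, Rsad2 and Sp100 among the members. The others had sites in introns or were not found in that list under their symbols. The study also names Cmpk2, Rsad2 and Trim30a among genes with overlapping 3′ UTR sites of TTP and of HuR, a protein that stabilises mRNA. No site sequence of Trim30a was held here. The sites of Rsad2 and Sp100 were under 10 bases long. One site is shown for each of the 3 members with a longer one, with each ATTTA, the letters of the AU-rich element, in capitals (mm9: Cmpk2 at chr12:27163765-27163786 (+ strand), Usp18 at chr6:121220614-121220624 (+ strand), Ifit2 at chr19:34650898-34650907 (+ strand)).
Cmpk2: acaaATTTAATTTAtcttaata
Usp18: ataataATTTA
Ifit2: tttgtttata
These begin at bases 771 of 1706, 79 of 399 and 1934 of 1945 of the longest annotated 3′ UTR of the gene (GENCODE vM1). The list held 8 sites in 3′ UTRs for Cmpk2, 6 for Usp18, 3 for Rsad2, 2 for Ifit2 and 1 for Sp100. Among those searched, ATTTA was found in only 2, the sites printed for Cmpk2 and Usp18. The other sites searched, also in Cmpk2 and Usp18, had none. The printed sites thus held ATTTA more often than the sites searched as a whole. The slope differences, ΔM minus WT, were -0.07 at 3 h and 0.19 at 6 h for Cmpk2, -0.24 and 0.13 for Usp18 at the same times, and -0.55 and 0.13 for Ifit2. They were -0.28 and 0.14 for Rsad2, -0.34 and -0.07 for Sp100, and -0.72 and 0.03 for Trim30a. None of the members named here passed 0.25 toward slower loss in ΔM, beside 23.9% of all genes at 3 h and 19.7% at 6 h. With so few members, a count of none is near these shares. Cmpk2 mRNA left 103% in ΔM and 108% in WT BMDMs at 3 h, and 89.6% in ΔM and 78.7% in WT BMDMs at 6 h, and Usp18 mRNA left 109% in ΔM and 129% in WT BMDMs at 3 h, and 112% in ΔM and 102% in WT BMDMs at 6 h. For contrast, the 10 cytokine, chemokine and related mRNAs taken as TTP targets had a median slope difference of 0.58 at 3 h and 0.96 at 6 h, and 9 of the 10 passed 0.25 toward slower loss in ΔM at 6 h. Tnf, the best known of them, had 2.07 at 3 h and 3.75 at 6 h. Their median log2 ratio of ΔM over WT was 0.51, 0.72 and 1.74 at 0, 3 and 6 h, which increased with time where that of the antiviral members decreased.

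Of the interferon pathway itself, genes were taken from ligand to transcription factors. Ifnb1, the ligand, was at 0.04, 186 and 13.1 FPKM in ΔM BMDMs at 0, 3 and 6 h of LPS, against 0.04, 26.5 and 0.75 FPKM in WT BMDMs, so that its level without LPS was near 0 in both genotypes and its level after LPS was higher in ΔM. The receptor genes Ifnar1 and Ifnar2 had log2 ratios of 0.24 and 0.26 at 0 h, and the kinase genes Jak1 and Tyk2 0.06 and 0.01. Irf9, a transcription factor of the pathway, had 0.23. Irf7, which drives interferon genes and is itself interferon-induced, was at 852, 1417 and 3519 FPKM in ΔM BMDMs at 0, 3 and 6 h of LPS, against 225, 964 and 3481 FPKM in WT BMDMs, and its ratio at 0 h was 1.92. The interferon-inducible GTPases, which attack vacuoles of intracellular pathogens, were close to the antiviral members, with medians of 0.90, 0.44 and 0.10 at 0, 3 and 6 h. At 0 h 11 of 11 were above 0, beside 41.7% of all genes. Some of them were near 0 FPKM without LPS, such as Tgtp1 (0.28 FPKM in ΔM and 0.01 FPKM in WT BMDMs) and Iigp1 (0.28 and 0.08 FPKM in the same order).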

How the data were processed

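Bone marrow-derived macrophages of ΔM and WT genotype were sampled by poly(A) RNA-Seq (SENSE library kit, 100-base single-end reads). The authors mapped reads with GSNAP to mm10 and quantified genes with Mix², and deposited FPKM as 1 pooled value per group without actinomycin D. Columns of the authors' own comparisons in that table hold log2 fold changes and FDRs from DESeq2 and were not used. For decay, the authors deposited the slope of log2 FPKM per min over 3 times of actinomycin D in groups of 3 replicates, with the half-life equal to -1 divided by the slope and "stable" written from 180 min upward, which was checked on the table. The pooled values used here carry no depth, precision or replicate spread, and no test, interval or SD was computed from them.

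With Python 3.11.15, pandas 2.3.3 and NumPy 2.4.6, log2 ratios of FPKM were taken with a pseudocount of 1, which understates changes of low genes, over genes with a mean of at least 1 FPKM. Calls were set at 2-fold, at a half-life under 180 min and at a slope difference of 0.25 log2 units over 90 min. The steps were tested on simulated data. The members and gene lists were chosen with earlier results of these data known. Named in full are, in each class, the members with the 3 largest and 2 smallest ratios at each time and the 3 largest LPS responses in WT, those with a half-life under 180 min, the 5 largest slope differences at each time, and those with a printed TTP site. Alternatives were another pseudocount, filter, threshold and centring, and leaving out members with close paralogues. Some results of the interferon pathway are not reported here. Promoters are from RefSeq, and TTP site sequences from the study's supplement.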

Additional observations from a re-analysis of the deposited data

How the results depend on the processing

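A set of 30 results, the counts and medians over the members, was recomputed under 9 other settings. None of the medians changed sign, while a count of members cannot change sign. All 41 members pass the filters of 1 and 5 FPKM, so that the 60 values under another filter are the same by construction and say nothing on stability. Of the other 97 values, 74 stayed within 1.5 times of the value in the report, among them all 20 with a pseudocount of 0.1. With a 1.5-fold threshold the members higher in ΔM numbered 32, 9 and 2 at 0, 3 and 6 h (15, 2 and 0 at 2-fold), and those higher at 6 h than at 3 h numbered 19 in ΔM and 24 in WT (8 and 15). Centred on the median of all genes, the median ratio at 6 h was 0.10, the members higher at 6 h than at 3 h in ΔM numbered 14, the median slope difference was -0.16 at 3 h and 0.027 at 6 h, and the median change of slope between 3 and 6 h was 0.032 in ΔM and -0.014 in WT. Leaving out 11 members with close paralogues (Ifit1, Ifit3, the Oas, Oasl and Mx genes, Trim30a and Ifi27l2a, but not Ifit2) left 30 members. Of these 30, 1 member was 2-fold higher in ΔM at 3 h, 7 in ΔM and 3 in WT had a half-life under 180 min at 3 h, and 1 had slower loss in ΔM at 6 h. Such counts are lower in part because the set is smaller. The median change of slope in WT was -0.093 in this set. A half-life limit of 120 min left 2 members in WT at 3 h, and 2 in ΔM and 4 in WT at 6 h. Members with slower loss in ΔM at a threshold of 0.1 numbered 7 at 3 h and 16 at 6 h, and at 0.5 they numbered 1 and 0. Shares of all genes were not computed under these other settings. The counts therefore show only how the members' own counts depend on the setting. No paired analysis was possible because the tables hold pooled values, and for the same reason no replicate could be left out. Depth is unknown, and counting error is relatively largest for members of low level, such as Ifi44, Mx1, Mx2, Herc6 and Ddx60 without LPS.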

Other observations

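The letters of AU-rich elements were counted in the longest annotated 3′ UTR of each member (GENCODE vM1). ATTTA was found in 30 of 41 members (73.2%), beside 61.3% of 19915 genes, and the longer TATTTAT in 9 of 41 (21.95%), beside 23.9%. Taken over all bases, ATTTA occurred 1.23 times per kb in the members and 1.74 times per kb in all genes. The 10 TTP target mRNAs all held TATTTAT, and had 8.13 ATTTA per kb. By class, TATTTAT was found in 4 of 17 effectors, 2 of 6 sensors, 2 of 10 ubiquitin-like and PARP genes and 1 of 8 other induced genes, and Eif2ak2 was the member that had it more than a single time. Among the members with most ATTTA were Herc6 with 9, and Cmpk2 and Ifi44 with 7 each. The 9 members with TATTTAT had a median slope difference, ΔM minus WT, of -0.54 log2 units over 90 min at 3 h and 0.12 at 6 h, and the 32 without it had -0.18 at 3 h and 0.06 at 6 h. Letters in a 3′ UTR are a description and were not measured as sites.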
